A study of Mus musculus with 6 samples.

Results

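The genes described here move cholesterol and other lipids out of cells or store them: Apoe, Lpl, Abca1, Abcg1, Plin2, Soat1 and Nr1h2. They are 7 of the 17042 genes present in all deposited tables and were taken by name, by no threshold on their values. The choice was made with earlier results of these data known. Their molecules were counted in spinal cord cells of mice by Drop-seq, a droplet method that gives each cell a barcode and each RNA molecule a unique molecular identifier (UMI). The 6 libraries fell into 3 groups of 2: SOD1-G93A mice given Necrostatin-1s (SOD1-Nec), SOD1-G93A mice given vehicle (SOD1-Veh) and wild-type mice given vehicle (WT-Veh). SOD1-G93A mice carry a transgene for a mutant human superoxide dismutase that causes amyotrophic lateral sclerosis, and the transgene is present in every cell type. Necrostatin-1s inhibits the kinase RIPK1. Cells were freed with Accutase, cleared of myelin and taken from a density gradient, steps that can select among cell types. There was no wild-type group with the inhibitor, and no age of the mice is given in the sources used here. Whether both libraries of a group came from different animals is not in the labels. The p-values therefore measure the spread between libraries, which may be technical.

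Apolipoprotein E, the product of Apoe, coats the lipoprotein particles that carry cholesterol between cells of the central nervous system, where astrocytes are its best-known source. Lipoprotein lipase, from Lpl, splits the triglycerides of lipoproteins. In mouse models of neurodegeneration, microglia that take up myelin debris and dying cells are known to raise both genes. Surplus cholesterol is passed to apolipoproteins by the membrane transporters Abca1 and Abcg1, or is esterified by the enzyme Soat1 and kept in lipid droplets, whose surface protein is Plin2. Nr1h2 encodes the oxysterol receptor LXR-beta, a nuclear receptor whose known targets include Abca1, Abcg1 and Apoe.

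A total of 3331 cells were retained, with at least 200 detected genes, at most 20% mitochondrial UMIs and no doublet call. There were 658 and 791 cells in SOD1-Nec, 395 and 430 in SOD1-Veh and 508 and 549 in WT-Veh, and the median cell held 524 to 727 UMIs. Cells were clustered without these 7 genes and named from marker genes, so a class name such as microglia stands for microglia-like cells. The retained cells held 4810 Apoe, 271 Lpl, 129 Plin2, 124 Soat1, 90 Abcg1, 79 Abca1 and 78 Nr1h2 UMIs. The single Sod1 row, which does not separate the transgene from the mouse gene, stood at 4447 and 5388 CPM (UMIs of the gene per 1000000 UMIs) over all barcodes of SOD1-Nec, 4138 and 5312 CPM of SOD1-Veh and 213 and 179 CPM of WT-Veh. Only 1 retained barcode occurred in more than 1 library. Some classes were uneven: skeletal muscle cells were found only in SOD1-Veh (16 and 47 cells), and WT-Veh library 2 held 162 of the 253 neurons.

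Microglia were the largest class and the only class in which Lpl as well as Apoe could be tested. Microglia numbered 122 and 159 cells in SOD1-Nec, 84 and 78 in SOD1-Veh and 100 and 95 in WT-Veh, with 70286 to 101447 UMIs per library. All 13 microglial markers were detected in every library. Their summed level was 17599 and 18098 CPM in SOD1-Nec, 22299 and 23035 CPM in SOD1-Veh and 28419 and 29490 CPM in WT-Veh. UMIs were summed per library and tested with edgeR's quasi-likelihood test over the 1550 genes that passed its filter on low counts, and a gene was called when its Benjamini-Hochberg adjusted p was below 0.05. Only Apoe and Lpl passed the filter in microglia, and the other 5 genes are given by their counts.

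Apoe rose in the microglia of both SOD1 groups. It stood at 4907 and 9088 CPM in SOD1-Nec, 3693 and 4297 CPM in SOD1-Veh and 759 and 567 CPM in WT-Veh. Means were 6998 ± 2957 CPM in SOD1-Nec, 3995 ± 427 CPM in SOD1-Veh and 663 ± 136 CPM in WT-Veh (SD, n = 2 each). Every SOD1 library lay above both WT-Veh libraries, and both SOD1-Nec libraries lay above both SOD1-Veh libraries. Against WT-Veh, Apoe was 6.07-fold higher in SOD1-Veh (log2 2.60 ± 0.25 SE, edgeR quasi-likelihood test, adjusted p = 1.60e-13) and 11.0-fold higher in SOD1-Nec (log2 3.46 ± 0.25, adjusted p = 1.04e-19). By p-value it ranked 2 and 1 among the 1550 genes in these comparisons. Because Apoe was chosen with earlier results of these data known, the ranks are a description only. The background was low: 2.26% of all tested genes were called between SOD1-Veh and WT-Veh, and 6.13% between SOD1-Nec and WT-Veh.

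Lpl rose in the same cells. It had 57 and 88 UMIs in SOD1-Nec microglia (701 and 867 CPM), 28 and 30 in SOD1-Veh (329 and 427 CPM) and 8 and 0 in WT-Veh (103 and 0 CPM). The SOD1-Nec libraries were highest and the WT-Veh libraries lowest, with no overlap. WT-Veh library 2 held no Lpl UMI in any microglial cell, which allows up to 34.04 CPM by a floor of 3 counts. Lpl was 7.57-fold higher in SOD1-Veh than in WT-Veh (log2 2.92 ± 0.50 SE, edgeR quasi-likelihood test, adjusted p = 1.46e-05). It was 16.4-fold higher in SOD1-Nec than in WT-Veh (log2 4.03 ± 0.44, adjusted p = 1.29e-11). These sizes rest on 8 WT-Veh UMIs from a single library. Without WT-Veh library 1, against a floor of 3 counts, the difference was 3.46 on the log2 scale for SOD1-Veh and 4.54 for SOD1-Nec. Without WT-Veh library 2 it was 1.84 for SOD1-Veh. DESeq2, the other count model that was run, did not call Lpl in either comparison (adjusted p = 0.627 for SOD1-Veh).

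Between the SOD1 groups, Apoe and Lpl were both higher with Necrostatin-1s, in a call that depended on single libraries. Apoe was 1.81-fold higher in SOD1-Nec than in SOD1-Veh (log2 0.86 ± 0.22 SE, edgeR quasi-likelihood test, adjusted p = 0.00826). Lpl was 2.16-fold higher (log2 1.11 ± 0.30, adjusted p = 0.0176). Both were among 51 called genes, 3.29% of those tested. Without SOD1-Nec library 2, in which Apoe stood highest, the log2 difference of Apoe fell to 0.35 (adjusted p = 0.746) and that of Lpl to 0.96 (adjusted p = 0.220). Without SOD1-Veh library 1 they were 0.74 and 0.91 (adjusted p = 0.0983 and 0.169), and DESeq2 called neither (adjusted p = 0.187 and 0.660).

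**Figure D1:**
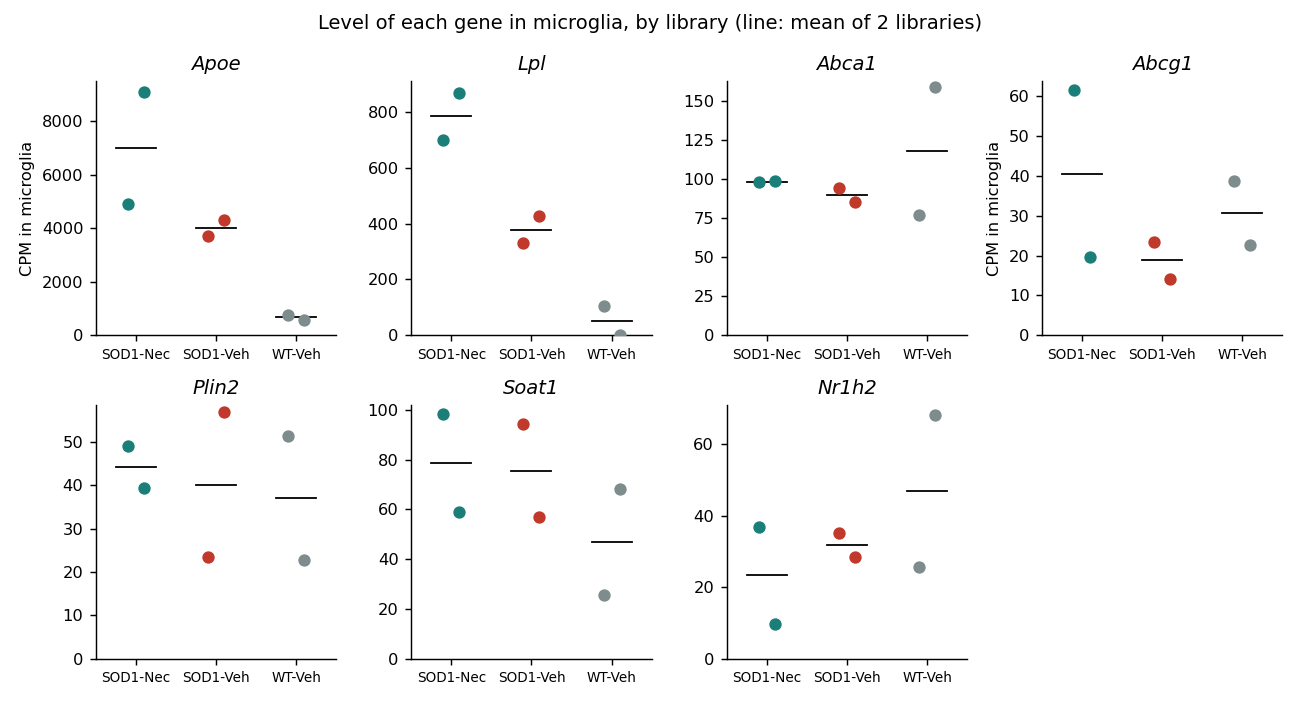
Level of each of the 7 genes in microglia, in UMIs per 1000000 microglial UMIs (CPM), with 1 point per library and a line at the mean of the 2 libraries; each panel has its own linear axis from 0. Apoe and Lpl are lowest in both WT-Veh libraries and highest in both SOD1-Nec libraries, while the points of the other 5 genes overlap or lie close together.

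Some measures of other cells and of free RNA differed between the libraries in which Apoe and Lpl differed. All 12 astrocyte markers were found in the microglia of every library except SOD1-Nec 1, where Slc6a11 was at 0, with summed levels of 1537 and 1774 CPM in SOD1-Nec, 1223 and 1295 CPM in SOD1-Veh and 1570 and 1203 CPM in WT-Veh. In microglia with no UMI of any astrocyte marker, Apoe remained higher in SOD1-Veh than in WT-Veh (log2 2.68) and in SOD1-Nec than in WT-Veh (log2 3.55), and neither Apoe (log2 0.87, adjusted p = 0.173) nor Lpl (log2 0.23, adjusted p = 0.919) was called between SOD1-Nec and SOD1-Veh. Oligodendrocyte markers followed the order of Apoe and Lpl without overlap, with 7 to 9 of 10 detected and summed levels of 12028 and 13495 CPM in SOD1-Nec, 9538 and 9618 CPM in SOD1-Veh and 8508 and 5980 CPM in WT-Veh. Of these markers Mog was at 0 in 4 libraries and Opalin in 5. The oligodendrocytes themselves held no Lpl UMI. Markers of border macrophages summed to at most 49.3 CPM in any library, and Cd163, Lyve1 and Cbr2 were at 0 in all. Erythroid markers in microglia summed to 46329 and 32086 CPM in SOD1-Nec, 2811 and 5293 CPM in SOD1-Veh and 9975 and 16532 CPM in WT-Veh. In barcodes with under 100 genes, taken as free RNA, Apoe stood at 596 and 583 CPM in SOD1-Nec, 1699 and 2144 CPM in SOD1-Veh and 1187 and 1118 CPM in WT-Veh. After subtraction of free RNA, the log2 difference of Apoe between SOD1-Nec and SOD1-Veh was 0.90 (edgeR adjusted p = 0.00520). In WT-Veh, microglial Apoe before subtraction was below the free RNA of its own libraries. The subtraction was scaled on haemoglobin UMIs and lowered the WT-Veh microglial sums from 77695 and 88131 to 76627 and 85857 UMIs. The WT-Veh level of Apoe after it is not given here. Whether haemoglobin UMIs follow the free Apoe in microglia was not tested. The part of oligodendrocyte and erythroid RNA in these differences was not tested.

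In single cells, both the share of microglia with any Apoe and the number of molecules in the highest cells were larger in the SOD1 groups than in WT-Veh. Each cell was thinned to 500 UMIs, which left out 144 shallower cells in SOD1-Nec, 43 in SOD1-Veh and 66 in WT-Veh, because the median microglial cell held 483, 800.5 and 628 UMIs in these groups. An Apoe UMI was then found in 52.6% of SOD1-Nec microglia (72 of 137 cells, exact 95% interval 43.9 to 61.1%), 45.4% of SOD1-Veh microglia (54 of 119, 36.2 to 54.8%) and 18.6% of WT-Veh microglia (24 of 129, 12.3 to 26.4%). By library the shares were 50.8% and 54.1% in SOD1-Nec, 45.3% and 45.5% in SOD1-Veh and 23.3% and 14.5% in WT-Veh. The intervals here pool the cells of 2 libraries and leave out the spread between libraries. Neutrophils, which are not known for Apoe expression, had shares of 20% in SOD1-Nec, 18.5% in SOD1-Veh and 21.0% in WT-Veh, at median depths of 626, 674 and 729 UMIs. B cells, another class not known for Apoe, had higher shares of 23.9% in SOD1-Nec, 28.9% in SOD1-Veh and 36.6% in WT-Veh, at median depths of 449.5, 535 and 504 UMIs. The WT-Veh share of microglia was above neither background, and those of both SOD1 groups were above both, although in SOD1-Veh library 2 the share was 45.5% of microglia against 38.5% of B cells. The exact 95% intervals of microglia and B cells overlapped in SOD1-Veh, at 36.2% to 54.8% and 19.1% to 40.5%. At 300 UMIs the shares of microglia were 42.3% in SOD1-Nec and 35.6% in SOD1-Veh. Without thinning, they were 49.5% in SOD1-Nec, 52.5% in SOD1-Veh and 32.8% in WT-Veh. The order of the SOD1 groups thus depended on whether cells were thinned to equal depth.

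Microglia with at least 10 Apoe UMIs among 500 were found in the 4 SOD1 libraries and in neither WT-Veh library: 4 of 63 and 8 of 74 microglia in the SOD1-Nec libraries, 3 of 64 and 4 of 55 microglia in the SOD1-Veh libraries, but 0 of 60 and 0 of 69 in the WT-Veh libraries. The highest cell reached 24 and 66 Apoe UMIs in the SOD1-Nec libraries, 31 and 24 in the SOD1-Veh pair and 5 and 5 in WT-Veh. The median cell held 1 in both SOD1-Nec libraries and 0 in the others. The tenth of cells with the most Apoe carried 59.0% and 79.8% of the Apoe UMIs in SOD1-Nec, 69.6% and 65.3% in SOD1-Veh and 69.2% and 83.3% in WT-Veh, so the distribution was uneven in every library.

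**Figure D2:**
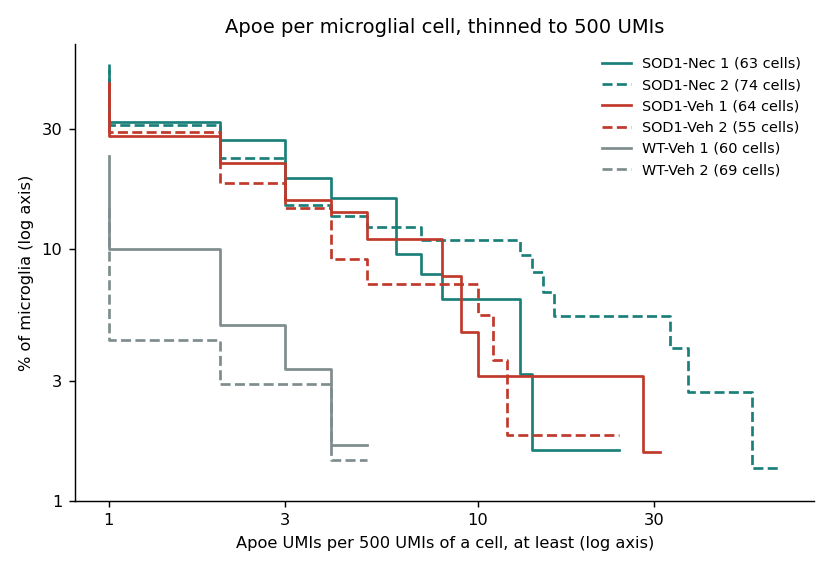
Share of microglia (percent, log axis) with at least a given number of Apoe UMIs among 500 thinned UMIs of the cell (log axis), 1 line per library, solid for library 1 and dashed for library 2. The WT-Veh lines end at 5 UMIs, and the SOD1 lines extend to 24 or more, furthest in SOD1-Nec library 2, at 66.

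Lpl was found in fewer cells. At 500 UMIs it was seen in 16.1% of SOD1-Nec microglia (22 of 137 cells), 7.56% of SOD1-Veh microglia (9 of 119) and 2.33% of WT-Veh microglia (3 of 129), against 1.74%, 0% and 0% of neutrophils in the same groups. Microglia with an Lpl UMI held more Apoe than those without in each of the 5 libraries that had such cells. Their Apoe level was 10178 against 3238 CPM and 20788 against 5031 CPM in SOD1-Nec, 5906 against 3310 CPM and 6071 against 4029 CPM in SOD1-Veh, and 4378 against 521 CPM in WT-Veh library 1. These were 15 and 22, 11 and 5, and 5 cells. They were also deeper, with median UMIs of 948 against 469, 610 against 450, 960 against 736, 1297 against 765 and 1197 against 594. The difference is a description of cells within libraries and was not tested.

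Microglia formed 2 clusters, both marked by all 13 microglial markers, and the difference of SOD1-Nec from SOD1-Veh in Apoe and Lpl had opposite signs in them, with a call in the larger alone. The larger cluster (330 cells, median 853.5 UMIs) was led by Ccl3, Ccl4, Jun, Egr1 and Atf3, genes of chemokines and of the immediate early response, which is also induced by tissue dissociation. The smaller (308 cells, median 421 UMIs) was led by Trem2, C1qb and Siglech, genes of a lipid-sensing receptor, of complement and of a microglial surface lectin. The larger cluster held 34.5% of SOD1-Nec microglia (97 of 281), 65.4% of SOD1-Veh microglia (106 of 162) and 65.1% of WT-Veh microglia (127 of 195), so different clusters made up most of the class in SOD1-Nec and in the vehicle groups.

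In the larger cluster Apoe was at 6488 and 9730 CPM in SOD1-Nec, 2779 and 2583 CPM in SOD1-Veh and 689 and 470 CPM in WT-Veh. The groups did not overlap, and Apoe was higher in SOD1-Nec than in SOD1-Veh (log2 1.55, edgeR quasi-likelihood test, adjusted p = 0.000514), as was Lpl (log2 1.92, adjusted p = 0.0112), where 1.73% of 1157 tested genes were called. In the smaller cluster Apoe was at 3050 and 8402 CPM in SOD1-Nec, 6906 and 11851 CPM in SOD1-Veh and 1015 and 951 CPM in WT-Veh. There the SOD1 groups overlapped, and the log2 difference of SOD1-Nec from SOD1-Veh was -0.71 for Apoe (adjusted p = 0.272) and -0.73 for Lpl (adjusted p = 0.452), with 5.61% of the 285 genes that could be tested called. The difference between the clusters was not tested. Apoe was higher in SOD1-Veh than in WT-Veh in both clusters, by log2 2.23 in the larger (edgeR adjusted p = 6.85e-06) and 3.25 in the smaller (adjusted p = 1.69e-05), where 0.951% and 8.42% of genes were called. In SOD1-Nec it was higher than in WT-Veh by log2 3.78 in the larger and 2.54 in the smaller, where 3.2% and 2.81% of genes were called. In the larger cluster Lpl had 106 UMIs in SOD1-Nec, 34 in SOD1-Veh and 3 in WT-Veh, a ratio of levels of 12.04 between SOD1-Veh and WT-Veh (exact 95% interval 3.79 to 61.3, counting error only).

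**Figure D3:**
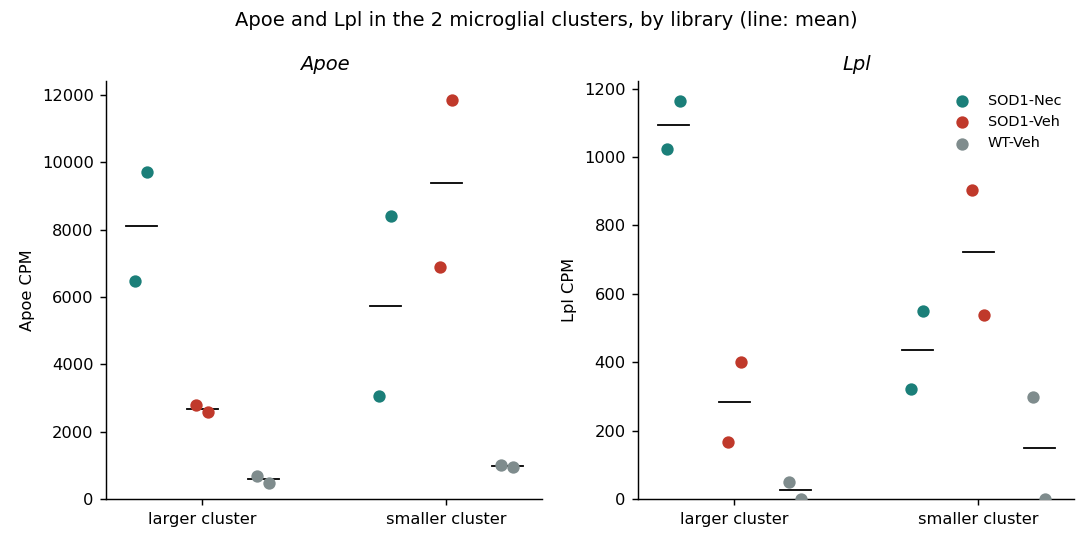
Apoe (left) and Lpl (right) in UMIs per 1000000 UMIs of the cluster (CPM, linear axes from 0) in the larger and the smaller microglial cluster, with 1 point per library and a line at the mean of the 2 libraries of a group. SOD1-Nec stands highest in the larger cluster and overlaps or lies near SOD1-Veh in the smaller, while WT-Veh is lowest for Apoe in both.

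The transporters and the storage genes showed no such difference in microglia at this depth. Abca1, which exports cholesterol to lipid-poor apolipoproteins, had 8 and 10 UMIs in SOD1-Nec (98.4 and 98.6 CPM), 8 and 6 in SOD1-Veh (94.1 and 85.4 CPM) and 6 and 14 in WT-Veh (77.2 and 159 CPM). The WT-Veh libraries spanned those of both SOD1 groups. The ratio of summed levels was 0.747 between SOD1-Veh and WT-Veh (exact 95% interval 0.349 to 1.56) and 1.09 between SOD1-Nec and SOD1-Veh (0.513 to 2.37). The 6.07-fold difference of Apoe between SOD1-Veh and WT-Veh lies outside the first of these intervals, and its 1.81-fold difference between SOD1-Nec and SOD1-Veh lies inside the other. Both intervals cover counting error only. The partner transporter Abcg1 was rarer, with 5 and 2 UMIs in SOD1-Nec, 2 and 1 in SOD1-Veh and 3 and 2 in WT-Veh, and its ratio between SOD1-Nec and WT-Veh, 1.27, had an interval of 0.347 to 5.08.

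The droplet coat gene Plin2 had 4 and 4 UMIs in SOD1-Nec microglia, 2 and 4 in SOD1-Veh and 4 and 2 in WT-Veh. Soat1, the cholesterol-esterifying enzyme, had 8 and 6 in SOD1-Nec, 8 and 4 in SOD1-Veh and 2 and 6 in WT-Veh. Nr1h2, the receptor, had 3 and 1 in SOD1-Nec, 3 and 2 in SOD1-Veh and 2 and 6 in WT-Veh. Groups overlapped for all 3 genes. The ratio of SOD1-Veh to WT-Veh was 1.07 for Plin2 (interval 0.285 to 3.99), 1.60 for Soat1 (0.602 to 4.52) and 0.667 for Nr1h2 (0.172 to 2.31), so changes up to about these bounds were not detectable in either direction.

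The promoters of Apoe and Abca1 are shown because both genes are known LXR targets. Apoe was called between the groups of microglia, while Abca1 had too few counts there for a test. They run from 250 bases before to 50 bases after the annotated start, on the strand of the gene, as RefSeq gives them for GRCm38.p6, a later build than the mm9 of the files. RefSeq's table held a promoter for 5 of the 7 genes and 3 for Apoe, of which 1 is shown, at chr7:19699139-19699438 on the minus strand. The Abca1 promoter is at chr4:53159846-53160145, also on the minus strand, and its capitals mark a match, on the opposite strand, to the paired half-sites with a spacer that LXR is known to bind.
Apoe: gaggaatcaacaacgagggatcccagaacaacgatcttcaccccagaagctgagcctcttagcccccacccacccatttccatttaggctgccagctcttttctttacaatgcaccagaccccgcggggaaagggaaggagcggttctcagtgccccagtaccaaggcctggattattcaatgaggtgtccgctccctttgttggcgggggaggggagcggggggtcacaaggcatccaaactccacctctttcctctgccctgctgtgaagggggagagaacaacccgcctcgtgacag
Abca1: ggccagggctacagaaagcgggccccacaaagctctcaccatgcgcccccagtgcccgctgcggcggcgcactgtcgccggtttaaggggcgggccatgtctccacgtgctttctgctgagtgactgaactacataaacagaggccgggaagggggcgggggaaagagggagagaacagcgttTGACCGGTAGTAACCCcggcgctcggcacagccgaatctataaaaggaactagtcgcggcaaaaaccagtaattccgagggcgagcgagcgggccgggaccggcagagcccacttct

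The pattern searched, on both strands, was the DR4 element, the half-site NGGTNA repeated after a spacer of 4 bases. It occurred once in the Abca1 window, 67 bases before the start, and in 0.718% of the 32851 promoters of the table. It did not occur in the Apoe window shown or in those of Plin2, Soat1 or Nr1h2. The Abca1 window also held the E-box CACGTG, found in 7.15% of promoters, 2 copies of the GC box GGGCGG, found in 35.7%, and the TATA box TATAAA, found in 13.6%. The Apoe window held none of these, nor the PU.1 core GAGGAAGT, found in 3.20% of promoters. A match is a run of letters in this window and says nothing about binding.

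Across cell classes Apoe was highest in astrocytes, with a pooled level of 10253 CPM (exact 95% interval 9513 to 11036). Microglia followed at 4060 CPM, then endothelial cells at 1909, oligodendrocyte precursors at 1628, monocytes at 1620 and ependymal cells at 1537 CPM, whose library values overlapped widely. Oligodendrocytes stood at 914 and neurons at 843 CPM, and the 7 remaining classes lay between 393 CPM in fibroblasts and 662 CPM in B cells. Astrocytes had 6321 and 9377 CPM in SOD1-Nec, 10799 and 11806 CPM in SOD1-Veh and 11693 and 9061 CPM in WT-Veh, from 28 to 223 Apoe UMIs a library. The SOD1-Veh and WT-Veh astrocytes overlapped, and this class was too small for a test. In SOD1-Nec library 2 the microglia (9088 CPM) came close to the astrocytes, and in WT-Veh the microglia lay below the endothelial cells and the monocytes.

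**Figure D4:**
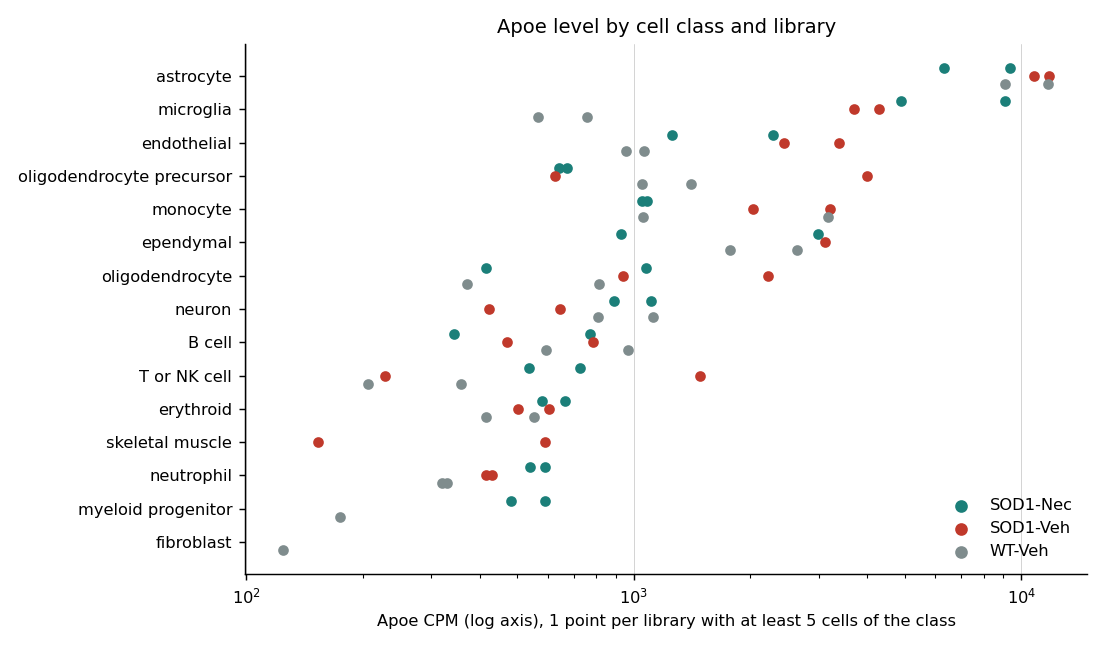
Apoe in UMIs per 1000000 UMIs of the class (CPM, log axis) for each cell class, with 1 point per library that held at least 5 cells of the class. The microglial points spread from 567 to 9088 CPM by group, while the astrocyte points lie between 6321 and 11806 CPM in all 3 groups.

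The difference in Apoe between groups was larger in microglia than in the sum of the other cells. Pooled over all other cells, Apoe stood at 895 CPM in SOD1-Nec, 1221 CPM in SOD1-Veh and 1083 CPM in WT-Veh. Apoe in free RNA was likewise lowest in SOD1-Nec and highest in SOD1-Veh. Free RNA was not subtracted from these sums, and its part in the differences below was not tested. In a single edgeR fit over 5566 genes with the library as a block, the log2 change of SOD1-Veh from WT-Veh was larger in microglia by 2.40 ± 0.39 SE (adjusted p = 2.08e-06), that of SOD1-Nec from WT-Veh by 3.82 ± 0.39 (adjusted p = 1.27e-18) and that of SOD1-Nec from SOD1-Veh by 1.42 ± 0.37 (adjusted p = 0.0456). The share of all tested genes with a called difference was 0.18%, 0.305% and 0.252% in that order. The last call was lost when any 1 of the 4 SOD1 libraries was left out. For Lpl the difference of SOD1-Nec from SOD1-Veh was not larger in microglia by this test (log2 0.87 ± 0.61, adjusted p = 1), and other WT-Veh cells held only 2 Lpl UMIs.

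Of the other classes with at least 20 cells in every library, only Apoe could be tested among the 7 genes, and it was not called in any. In monocytes, blood-derived phagocytes, Apoe had 1050 and 1082 CPM in SOD1-Nec, 2027 and 3208 CPM in SOD1-Veh and 1056 and 3164 CPM in WT-Veh. Both SOD1-Nec libraries lay below both SOD1-Veh libraries, and the log2 difference was -1.20 ± 0.38 SE (edgeR adjusted p = 0.196), where 0.92% of 870 tested genes were called. The share called was 0.92% between SOD1-Veh and WT-Veh and 0.115% between SOD1-Nec and WT-Veh. It was called when SOD1-Nec library 2, SOD1-Veh library 1 or either WT-Veh library was left out (log2 -1.15 to -1.47). Against WT-Veh it was called for SOD1-Veh without WT-Veh library 2 (log2 1.26) and for SOD1-Nec without WT-Veh library 1 (log2 -1.49), so these comparisons rested on which WT-Veh library was kept. A small monocyte cluster led by MHC class II genes held 77 Apoe UMIs in 7 SOD1-Veh cells, and without it the log2 difference was -0.54. Neutrophils had 541 and 589 CPM in SOD1-Nec, 415 and 431 CPM in SOD1-Veh and 320 and 330 CPM in WT-Veh. These groups did not overlap, yet the log2 difference of SOD1-Nec from WT-Veh was 0.78 ± 0.32 (edgeR adjusted p = 0.251). Of 847 genes, 0.118% were called there, 0.118% between SOD1-Veh and WT-Veh and 0% between SOD1-Nec and SOD1-Veh. In B cells the differences lay between -0.37 and -0.11 and in erythroid cells between -0.27 and 0.11 on the log2 scale. The share of genes called was 0.926% in B cells and 0.214% in erythroid cells between SOD1-Veh and WT-Veh, 0.514% and 2.21% between SOD1-Nec and SOD1-Veh, and 0.617% and 3% between SOD1-Nec and WT-Veh.

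Endothelial cells, too few for a test, had 1256 and 2289 CPM of Apoe in SOD1-Nec, 3396 and 2444 CPM in SOD1-Veh and 1063 and 954 CPM in WT-Veh, from 10 to 60 UMIs a library. The groups did not overlap, which is a description from 2 libraries each. Oligodendrocytes had 416 and 1079 CPM in SOD1-Nec, 938 and 2224 CPM in SOD1-Veh and 813 and 371 CPM in WT-Veh, and their groups overlapped.

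Lpl belonged mostly to microglia, at a pooled 419 CPM. Monocytes followed at 121 CPM, with 20 UMIs in SOD1-Nec, 10 in SOD1-Veh and none in WT-Veh. Against a floor of 3 counts over the WT-Veh group, monocyte Lpl was 4.78-fold higher in SOD1-Nec and 5.60-fold higher in SOD1-Veh. These values leave out the counting error of the UMIs in the SOD1 groups. The exact intervals of the ratios to WT-Veh began lower, at 3.54 for SOD1-Nec and 3.76 for SOD1-Veh (counting error only). Endothelial cells, known carriers of the lipase on the vessel wall, had 8 Lpl UMIs in all. No Lpl UMI was found in astrocytes, which allows up to 43.3 CPM, or in oligodendrocytes, which allows up to 11.6 CPM.

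The efflux and storage genes differed in the class where they were highest. Apart from the 18 fibroblasts, Abca1 was highest in microglia, at 103 CPM (exact 95% interval 77.1 to 135). It was not found in monocytes, which allows up to 12.1 CPM. Fibroblasts held 2 Abca1 UMIs in WT-Veh and 0 in each SOD1 group. Abcg1 was highest in oligodendrocytes, the myelin-forming cells, at 155 CPM (111 to 211), with 8 UMIs in SOD1-Nec, 6 in SOD1-Veh and 26 in WT-Veh. The pooled ratio of Abcg1 in oligodendrocytes between SOD1-Nec and WT-Veh was 0.373 (0.146 to 0.847, counting error only), with no test over libraries. Levels were 69.3 and 106 CPM in SOD1-Nec, 208 and 51.7 CPM in SOD1-Veh and 159 and 304 CPM in WT-Veh. WT-Veh library 2 held 18 of the 26 UMIs. Plin2 was highest in myeloid progenitors, at 196 CPM (114 to 315), and in monocytes, at 170 CPM (122 to 229). Soat1 was highest in monocytes, at 162 CPM (116 to 220), with 16 UMIs in SOD1-Nec, 17 in SOD1-Veh and 7 in WT-Veh. The ratio of monocyte Soat1 was 4.08 between SOD1-Veh and WT-Veh (1.61 to 11.6) and 0.401 between SOD1-Nec and SOD1-Veh (0.190 to 0.845), with no test over libraries. Nr1h2 was low, at 47.4 CPM in neutrophils, 46.8 in B cells and 33.7 in microglia. Erythroid cells had 18.8 CPM in SOD1-Nec, 12.5 in SOD1-Veh and 8.02 in WT-Veh, and neurons held no Nr1h2 UMI. B cells held 4 Nr1h2 UMIs in SOD1-Nec, 9 in SOD1-Veh and 0 in WT-Veh.

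Summed over all retained cells, all 7 genes passed the filter among 7482 tested, and Lpl alone was called. In such sums, fewer cells of a type and less RNA per cell cannot be told apart. Lpl stood at 154 and 154 CPM in SOD1-Nec, 98 and 80 CPM in SOD1-Veh and 16 and 2 CPM in WT-Veh. It was higher in SOD1-Veh than in WT-Veh (log2 3.25 ± 0.53 SE, edgeR quasi-likelihood test, adjusted p = 0.00586) and in SOD1-Nec than in WT-Veh (log2 4.0 ± 0.50, adjusted p = 0.00579). The background was 0.829% of genes called between SOD1-Veh and WT-Veh and 0.0401% between SOD1-Nec and WT-Veh. Between SOD1-Nec and SOD1-Veh none of the 7 genes was called, against 0.548% of all genes, and Lpl differed by log2 0.75 (adjusted p = 0.726). None of the 7 had an unadjusted edgeR p below 0.05 there, against 528 of all 7482 genes, and DESeq2 called none of the 7. Without SOD1-Veh library 1 the call of Lpl against WT-Veh was lost.

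Apoe over all cells had 1373 and 2284 CPM in SOD1-Nec, 1733 and 1664 CPM in SOD1-Veh and 1048 and 981 CPM in WT-Veh. Both SOD1 groups lay above WT-Veh without overlap, but the log2 differences, 0.86 for SOD1-Nec (adjusted p = 0.439, edgeR) and 0.79 for SOD1-Veh (adjusted p = 0.337), were not called. The other 5 genes differed between SOD1-Veh and WT-Veh by log2 values from -1.28 for Abcg1 (adjusted p = 0.398) to 0.69 for Nr1h2 (adjusted p = 0.678). Abcg1 had 10 and 4 UMIs in SOD1-Veh against 17 and 25 in WT-Veh, without overlap, in a difference that was not called.

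The classes that carried the Apoe molecules differed between groups. Microglia held 54.7% and 62.0% of the Apoe UMIs of a library in SOD1-Nec, 42.1% and 39.1% in SOD1-Veh and 10.1% and 10.1% in WT-Veh. Astrocytes held 3.84% and 7.87% in SOD1-Nec, 12.9% and 14.0% in SOD1-Veh and 38.3% and 27.9% in WT-Veh. Astrocytes thus outweighed microglia as carriers of Apoe in both WT-Veh libraries, and microglia outweighed astrocytes in all 4 SOD1 libraries. These shares also follow the number of cells recovered per class, which was 22 astrocytes in SOD1-Nec, 37 in SOD1-Veh and 58 in WT-Veh. Lpl was carried by microglia for 69.5% and 88.0% in SOD1-Nec and 66.7% and 81.1% in SOD1-Veh, and for 8 of 9 UMIs and 0 of 1 UMI in WT-Veh.

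**Figure D5:**
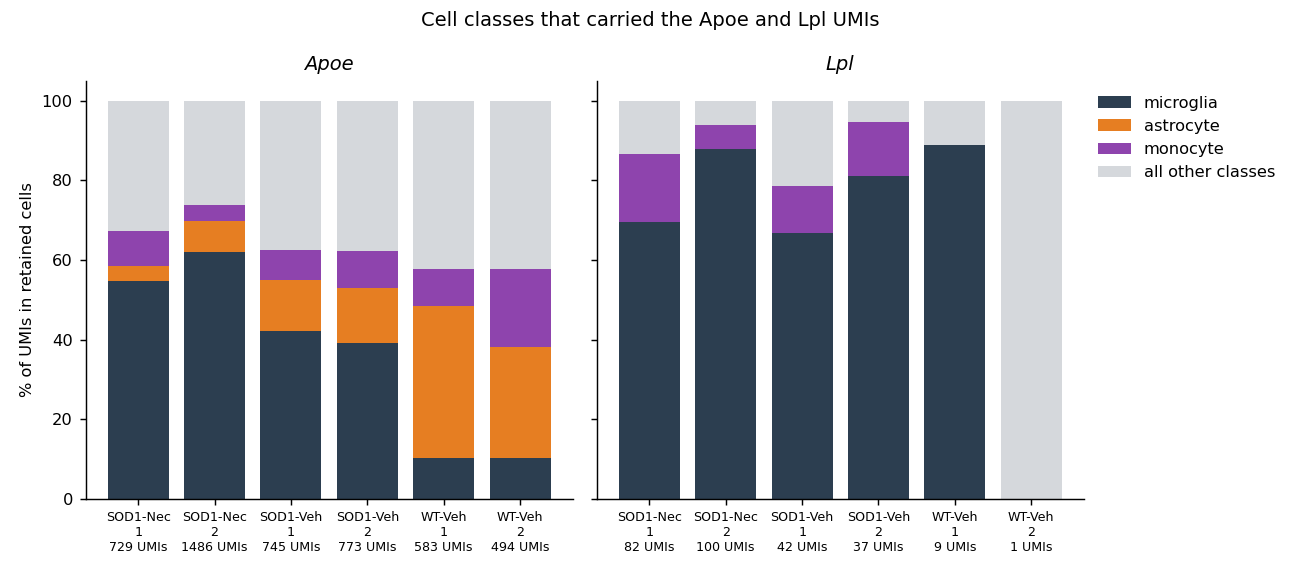
Percent of the Apoe UMIs (left) and Lpl UMIs (right) of each library's retained cells that lay in microglia, astrocytes, monocytes and all other classes, as stacked bars from 0, with the library's number of UMIs under each bar. The microglial share of Apoe is 10.1% in both WT-Veh libraries and 39.1 to 62.0% in the SOD1 libraries.

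Other genes of the pathway were followed in microglia from 7 lists of 111 genes, of which 108 were in the tables. Only 13 had enough counts to be tested. None was called by edgeR in any of the 3 comparisons, where 2.26% to 6.13% of all genes were called. In each comparison 1 of the 13 had an unadjusted p below 0.05. Of all 1550 genes, 176 did between SOD1-Veh and WT-Veh, 217 between SOD1-Nec and SOD1-Veh and 313 between SOD1-Nec and WT-Veh. The median log2 difference of these 13 was 0.03 between SOD1-Veh and WT-Veh, 0.15 between SOD1-Nec and SOD1-Veh and 0.10 between SOD1-Nec and WT-Veh, beside 0.02, -0.04 and 0.01 over all 1550 genes. Of the LXR and sterol export list, 3 of 14 genes were tested, the corepressor Ncor1, the desaturase Scd2 and the LDL receptor ligase Mylip, with a median of -0.04 between SOD1-Veh and WT-Veh. Of the receptors for lipoproteins and lipids, 4 of 15 were tested, with a median of -0.16. Among them Trem2, a microglial receptor that binds lipids and apolipoprotein E, differed by 0.03 between SOD1-Veh and WT-Veh and by -0.28 between SOD1-Nec and SOD1-Veh.

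Of the lysosomal cholesterol list, 4 of 13 genes were tested. The membrane protein Lamp1 differed by 0.51 between SOD1-Veh and WT-Veh (edgeR adjusted p = 0.394). Of the apolipoprotein list 1 of 10 was tested, Apobec1, and of the lipase partners 1 of 17, Fabp5, a fatty acid carrier. Fabp5 had 12 and 13 UMIs in SOD1-Nec, 5 and 1 in SOD1-Veh and 0 and 3 in WT-Veh. SOD1-Nec did not overlap with the others, though Fabp5 was not called. None of the 24 genes of cholesterol synthesis and none of the 18 of lipid droplets had enough counts in microglia for a test.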

How the data were processed

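The authors deposited 1 table per library of raw UMI counts, with genes as rows and cell barcodes as columns. The submitters' processing notes name the build mm9, while aligner and annotation are not stated there. Tables numbered replicate 1 listed 18169 genes and those numbered replicate 2 listed 18650, so the listed genes differed between the sets, and the 17042 genes in all tables were used. Of 21919 barcodes, 4754 had at least 200 genes and 3360 passed the 20% mitochondrial limit. Scrublet marked 29 as doublets. Cells were scaled to 10000 counts and clustered in scanpy 1.11.5 by Leiden (leidenalg 0.10.2, resolution 1, 2000 variable genes, 30 components, 15 neighbours), without the 7 genes described. The 20 clusters were named in 15 classes from marker lists.

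UMIs were summed per library and class (at least 20 cells in every library) and tested in edgeR 4.0.16 (R 4.3.3; TMM, filterByExpr, 6 libraries, group as the only term, Benjamini-Hochberg adjustment, threshold 0.05). Levels are CPM, UMIs of the gene per 1000000 UMIs of the class. Depth was 1508618 to 1767205 UMIs per table and 430002 to 650940 in retained cells. The smallest p an exact permutation test allows with 2 libraries per group is 0.333. Groups without overlap are therefore a description, and the share of all genes without overlap is not given here. Intervals are exact 95% Poisson or binomial intervals, and floors are 3 counts; both cover counting error only. The edgeR fits were also run on simulated counts, whose outcome is not given here. Alternatives were DESeq2 1.42.0, other scalings and filters, a replicate block, each library left out, free-RNA subtraction, other class definitions and other depths of thinning. The 7 genes, the 7 lists and the rule by which genes are named (all 7 always, list genes that passed the filter, the 5 genes most alike) were chosen with earlier results of these data known. One gene that the rule names is not reported here.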

Additional observations from a re-analysis of the deposited data

Results flagged for a closer look

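The change of Apoe between groups differed between microglia and all other cells by a test of that difference itself, in all 3 comparisons. On the log2 scale, the microglial change exceeded that of the other cells by 2.40 for SOD1-Veh against WT-Veh, by 1.42 for SOD1-Nec against SOD1-Veh and by 3.82 for SOD1-Nec against WT-Veh. The call for SOD1-Nec against SOD1-Veh (edgeR adjusted p = 0.0456) was lost when any 1 of the 4 SOD1 libraries was left out, and the calls against WT-Veh were kept with each library left out. The 2 comparisons with WT-Veh share the WT-Veh libraries, and those with SOD1-Veh share the SOD1-Veh libraries. Astrocytes, the class with the most Apoe per UMI, are part of the other cells and were 22 cells in SOD1-Nec, 37 in SOD1-Veh and 58 in WT-Veh. Apoe in free RNA was 596 and 583 CPM in SOD1-Nec, 1699 and 2144 CPM in SOD1-Veh and 1187 and 1118 CPM in WT-Veh. Free RNA was not subtracted from the other cells in this test. The parts of class makeup and of free RNA in these differences were not tested.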

How the results depend on the processing

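In microglia, Apoe kept its direction and its call under all 18 alternatives against WT-Veh, with log2 values from 2.23 to 3.25 for SOD1-Veh and from 2.54 to 4.09 for SOD1-Nec. Apoe and Lpl were both called in the main analysis of each microglial comparison. For SOD1-Veh against WT-Veh, 1 of them was called with DESeq2, in microglia without astrocyte-marker UMIs and in the smaller cluster alone, and 2 with any library left out. For SOD1-Nec against SOD1-Veh, 0 were called with DESeq2, with cells gated on markers, without astrocyte-marker UMIs and in the smaller cluster alone, where the signs reversed (Apoe -0.71, Lpl -0.73), and 0 to 2 with a library left out (0 without SOD1-Nec library 2 or SOD1-Veh library 1). For SOD1-Nec against WT-Veh, 1 was called with DESeq2 and in the smaller cluster. The cause of these changes was not tested.

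Over all cells, Lpl was the 1 gene called in each comparison with WT-Veh, and 0 were called without a filter on low counts, 0 with DESeq2 for SOD1-Nec against WT-Veh, and 0 to 1 with a library left out for SOD1-Veh against WT-Veh. In other classes 0 were called, and 0 to 1 with a library left out in each comparison, always Apoe in monocytes. The difference between microglia and other cells for Apoe in SOD1-Nec against SOD1-Veh was 1.25 to 1.57 with a library left out. The share of microglia with an Apoe UMI was 49.5%, 52.5% and 32.8% without thinning in SOD1-Nec, SOD1-Veh and WT-Veh and 42.3% and 35.6% at 300 UMIs in SOD1-Nec and SOD1-Veh. That with an Lpl UMI was 13.2% in SOD1-Nec and 9.88% in SOD1-Veh without thinning, and 7.92% and 6.88% at 300 UMIs.

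All other changes of sign were among values that were not called in the main analysis. At 400 genes per barcode, Plin2 over all cells was 0.040 for SOD1-Veh and 0.081 for SOD1-Nec against WT-Veh and Nr1h2 -0.031 for SOD1-Nec against WT-Veh. Apoe in monocytes without the MHC class II cluster was -0.61 for SOD1-Veh against WT-Veh. For SOD1-Nec against SOD1-Veh, Apoe over all cells was -0.012 with doublets kept, and in B cells 0.043 without a filter, 0.21 with free RNA subtracted and 0.20 with the 7 genes in the clustering. Erythroid Apoe for SOD1-Nec against WT-Veh was 0.062 without a filter and 0.0099 with gating. With a library left out, log2 values for SOD1-Veh against WT-Veh ranged from -0.67 to 0.67 (Plin2), -0.29 to 1.26 (monocyte Apoe), -0.74 to 0.25 (B cell Apoe) and -0.082 to 0.29 (erythroid Apoe). For SOD1-Nec against SOD1-Veh they ranged from -0.11 to 0.18 (Plin2), -0.85 to 0.40 (B cell Apoe), -0.41 to 0.43 (Apoe, all cells), -0.086 to 0.31 (Abca1) and -0.40 to 0.12 (Soat1). For SOD1-Nec against WT-Veh they ranged from -0.63 to 0.72 (Plin2), -1.49 to 0.10 (monocyte Apoe), -1.08 to 0.15 (B cell Apoe), -0.66 to 0.10 (Abca1) and -0.10 to 0.45 (Nr1h2).

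The number of genes called in microglia ranged from 10 to 37 for SOD1-Veh against WT-Veh (35 in the main analysis), from 5 to 70 for SOD1-Nec against SOD1-Veh (51) and from 8 to 113 for SOD1-Nec against WT-Veh (95). Over all cells these ranges were 6 to 171 (62), 0 to 62 (41) and 1 to 61 (3), and without the muscle clusters, found only in SOD1-Veh, the counts were 6, 0 and 6. Same-numbered libraries did not deviate together in microglia (r = -0.03, -0.01 and -0.04 over 724 genes), while over all cells r was -0.24 for SOD1-Veh with WT-Veh, 0.20 for SOD1-Nec with SOD1-Veh and -0.32 for SOD1-Nec with WT-Veh over 4475 genes, so replicate numbers were not taken as pairs. Tables of different numbers list different genes, and whether the number marks a batch is not in the labels. With a replicate block, Apoe was 2.59, 0.82 and 3.40 and Lpl 2.92, 1.10 and 4.03 in the 3 microglial comparisons, and no call of either changed, while the number of genes called went to 77 instead of 44 over the other classes (SOD1-Nec against SOD1-Veh) and to 5 instead of 3 over all cells (SOD1-Nec against WT-Veh). Fits with at least 400 genes per barcode in monocytes, neutrophils, B cells and erythroid cells, and of gated monocytes, were not run, because a library held under 20 such cells. Depth limits 5 of the 7 genes in microglia to between 3 and 20 UMIs per group.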

Other observations

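Over the 13 classes with at least 50 cells and the 4475 genes with at least 100 UMIs, the genes whose levels followed Apoe most closely were Ldhb (Pearson r = 0.90), Paqr7, Tpp1, Itgav and Sparc. Among those that followed Lpl were Abca9, AF251705, Tlr7 and Nlrp3, with r from 0.91 to 0.92. Ldhb, an enzyme of lactate metabolism, was highest in astrocytes (953 CPM) and then in microglia (427 CPM), and Sparc, a secreted matrix protein, in astrocytes (3942 CPM) and endothelial cells (3480 CPM). Abca9, a lipid transporter of the ABC family, was highest in microglia (173 CPM). These correlations describe how classes of the same 6 libraries rank, and the points share libraries and depth.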
